A study of Caenorhabditis elegans with 7 samples.

Results

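The genes described here encode the enzymes that break down leucine, isoleucine and valine, the branched-chain amino acids, in *C. elegans*. They were chosen by gene name, as the branched-chain aminotransferase, the subunits of the branched-chain ketoacid dehydrogenase, isovaleryl-CoA dehydrogenase and methylcrotonyl-CoA carboxylase, and not by a cut-off on measured values, though results of these libraries were known when the names were proposed. Of 7 names, 6 were found among the 46778 genes of the deposited table: *bcat-1*, *bckd-1A*, *bckd-1B*, *dbt-1*, *ivd-1* and *mccc-1*. The name *mccc-2* was not found there, for the reason given with its locus below. RNAseq was performed on whole animals at the L4 larval stage, and all animals were of the N2 Bristol strain, the standard laboratory wild type. WT Late animals (4 libraries) came from a population propagated for at least 50 generations through progeny laid on day 3 of adulthood. WT animals (3 libraries) were not selected in this way. Both groups were fed OP50 bacteria and collected after synchronization as L1 larvae. The libraries are labelled as biological replicates, but the sources used here do not say that the WT Late libraries came from separately selected lines, so that the tests below measure the spread between libraries.

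Breakdown of the branched-chain amino acids starts with a reversible transfer of the amino group, by the aminotransferase BCAT-1, which leaves a branched-chain ketoacid. The ketoacid is then decarboxylated and joined to coenzyme A in the mitochondria by a complex of an E1 component with alpha and beta subunits (BCKD-1A and BCKD-1B), an E2 acyltransferase (DBT-1) and the dihydrolipoamide dehydrogenase DLD-1, which is shared with the pyruvate and 2-oxoglutarate dehydrogenases. After this irreversible step the routes part, and leucine carbon passes through isovaleryl-CoA dehydrogenase (IVD-1) and the biotin enzyme methylcrotonyl-CoA carboxylase (subunits MCCC-1 and MCCC-2) towards acetyl-CoA and acetoacetate. In worms the complex is also known to supply the starting units of monomethyl branched-chain fatty acids, which larvae need to grow.

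In the deposited coordinates *bcat-1* (WBGene00001149) occupies X:12877480-12880328 of the plus strand, and its longest transcript in the WBcel235 annotation has 6 exons. The E1 alpha gene *bckd-1A* (WBGene00012713) occupies III:12967898-12972498 of the minus strand and has 5 exons, and the E1 beta gene *bckd-1B* (WBGene00006518) occupies I:7727267-7729092 of the plus strand and has 4 exons. The E2 gene *dbt-1* (WBGene00014054) occupies II:7942463-7945206 of the minus strand and has 10 exons. The leucine genes *ivd-1* (WBGene00015326, IV:5086839-5088883, minus strand, 4 exons) and *mccc-1* (WBGene00009319, IV:9884556-9887150, plus strand, 9 exons) share a chromosome. The sources used here do not state whether reads were counted by strand, and *dbt-1* overlaps ZK669.3 by 148 bases and *ivd-1* overlaps C02B10.5 by 49 bases on the opposite strand. Neither neighbour had more than 428 reads in any library. The members had between 1287 and 5307 reads each in every library, so that counting error was small beside the spread between libraries.

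The gene of the second carboxylase subunit, *mccc-2* (WBGene00303021, III:9086744-9089375 in WBcel235), was covered by a deposited entry under another name. That entry, F02A9.4 (WBGene00008514, III:9084306-9089386, minus strand), has a length of 3725 bases and spans both *mccc-2* and *mrpl-44*, a mitochondrial ribosomal protein gene. Of the exon bases of both genes together, 53.63% belonged to *mccc-2* alone, 42.01% to *mrpl-44* alone and 4.36% to both. Its values are given below as those of a merged entry and were not counted among the members.

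Each library held between 17553893 and 20961698 reads on genes. Values are given as rescaled FPKM, the deposited FPKM (fragments scaled by gene length and library size) divided by a median-of-ratios factor of each library (0.849 to 1.38), so that levels of genes of different length can be compared. WT Late replicate 3 stood apart from the other libraries. Ribosomal protein genes took 13.2% of its reads, against up to 35.6% in the other WT Late libraries and 24.1% to 29.8% in WT libraries, and it had reads on 18490 genes, the most of the 7 libraries. Results are therefore given with and without it. Across all genes, 13194 had an FPKM of 0.5 or more in 3 or more libraries and were tested, and 88 were higher and 24 lower in WT Late (limma, Benjamini-Hochberg adjusted p under 0.05). The median log2 fold change of all tested genes was -0.13, and it was -0.01 with quantile normalization, so that a fold change near 0 here lies above that median.

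None of the 6 members was called different between WT Late and WT animals, although all 6 fold changes were above 0, between 0.02 and 0.23 on the log2 scale. In 3 of the 4 WT Late libraries most members were at or above the WT level, and in WT Late replicate 3 they were below it. Transcripts of *bcat-1*, the aminotransferase of the first step, stood at 121, 121, 66.2 and 155 rescaled FPKM in WT Late replicates 1 to 4, against 83.3, 98.2 and 103 in WT replicates 1 to 3. WT Late replicates 1, 2 and 4 were thus above every WT library, and replicate 3 was below them all. The means were 116 ± 36.7 in WT Late (SD, n = 4) and 94.8 ± 10.26 in WT (SD, n = 3), a log2 fold change of 0.23 with a 95% interval of -0.60 to 1.06 and an adjusted p of 0.895 (limma, Benjamini-Hochberg).

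The E1 alpha subunit gene *bckd-1A* had the widest spread of the members as a fold, 5.77 between its highest and lowest library. It stood at 157, 148, 33.6 and 194 rescaled FPKM in WT Late replicates 1 to 4, against 125, 82.5 and 127 in the WT libraries. The order was that of *bcat-1*, with replicate 3 at the bottom of the 7 libraries and the other 3 WT Late libraries at the top. The means of *bckd-1A*, 133 ± 69.3 in WT Late and 112 ± 25.2 in WT (SD, n = 4 and 3), gave a log2 fold change of 0.02 with an interval of -1.20 to 1.24 (limma adjusted p = 0.995).

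Its partner *bckd-1B*, the E1 beta subunit gene, stood at 154, 91.3, 56.1 and 145 rescaled FPKM in WT Late replicates 1 to 4, against 94.8, 86.4 and 106 in WT replicates. Here WT Late replicates 1 and 4 were above all WT libraries, replicate 2 was within the WT range and replicate 3 was below it. The log2 fold change of *bckd-1B* was 0.12 with an interval of -0.78 to 1.02 (limma adjusted p = 0.958). The E2 gene *dbt-1*, whose product carries the lipoyl group of the complex, stood at 83.0, 78.9, 42.3 and 78.4 rescaled FPKM in WT Late replicates, against 58.3, 53.1 and 69.7 in WT replicates. Replicates 1, 2 and 4 of WT Late lay close together above the WT range, and replicate 3 lay below it. Its means of 70.6 in WT Late and 60.3 in WT gave a log2 fold change of 0.19 with an interval of -0.59 to 0.96 (limma adjusted p = 0.909).

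Of the genes specific to leucine, *ivd-1*, which encodes the dehydrogenase of isovaleryl-CoA, stood at 134, 116, 45.5 and 222 rescaled FPKM in WT Late replicates, against 119.1, 92.3 and 113 in WT replicates. WT Late replicate 4 was highest, replicate 3 lowest, and replicate 2 lay within the WT range. The log2 fold change of *ivd-1* was 0.06 with an interval of -1.01 to 1.13 (limma adjusted p = 0.982). The biotin-carrying carboxylase subunit gene *mccc-1* stood at 58.1, 64.6, 39.7 and 56.03 rescaled FPKM in WT Late replicates, against 39.1, 49.6 and 56.01 in WT replicates. It was the member least spread over the libraries, and the only one for which WT Late replicate 3 was not the lowest, since WT replicate 1 was slightly lower. Its log2 fold change was 0.17 with an interval of -0.55 to 0.89 (limma adjusted p = 0.910).

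The merged F02A9.4 entry, which holds *mccc-2* together with *mrpl-44*, stood at 103, 68.4, 36.8 and 78.5 rescaled FPKM in WT Late replicates, against 64.0, 47.5 and 65.5 in WT replicates. It showed the order of *bcat-1* and *dbt-1*, with WT Late replicate 3 lowest and the other 3 above every WT library. Its log2 fold change was 0.20 with an interval of -0.66 to 1.06 (limma adjusted p = 0.912), and these reads cannot be divided between the 2 genes.

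**Figure D1:**
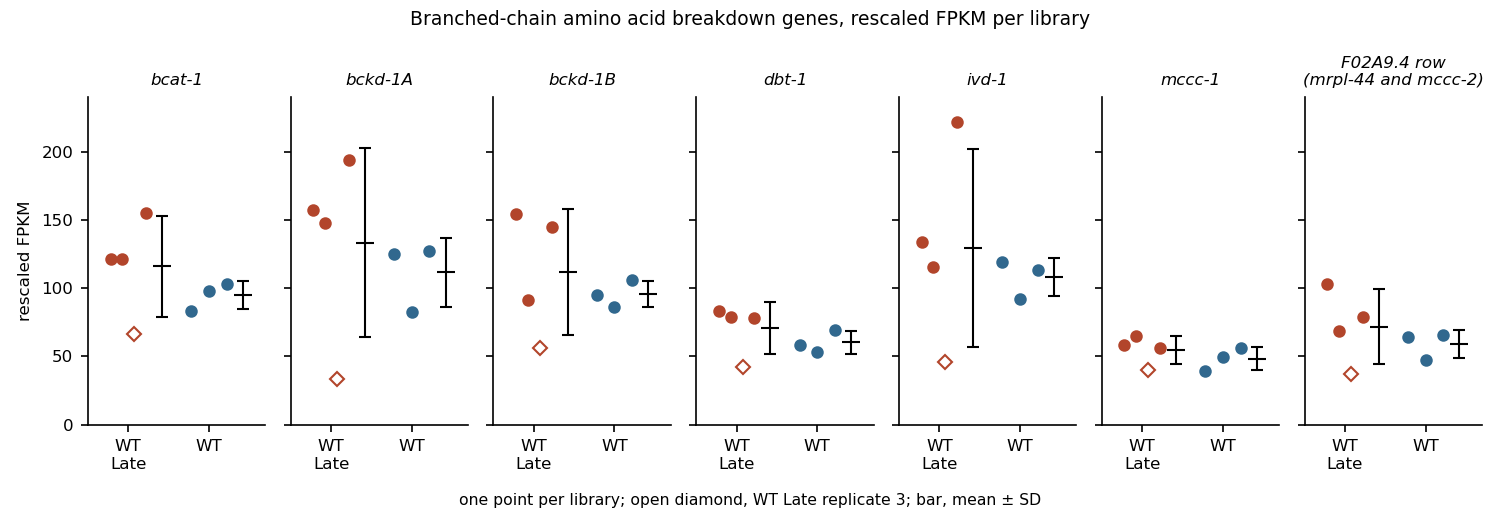
Level of each member and of the merged F02A9.4 entry in rescaled FPKM (y axis, linear), with one point per library, WT Late in red on the left of each panel and WT in blue on the right; the bars give the mean ± SD. WT Late replicate 3, the open diamond, lies at 33.6 for *bckd-1A* and 45.5 for *ivd-1*, while WT Late replicate 4 lies at 194 and 222.

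In counts, 0 of 6 members passed an adjusted p of 0.05 (limma), where 0.849% of all tested genes did, and 0 of 6 had an unadjusted p under 0.05, against 8.89% of all genes. The voom fit on recovered reads also called 0 of 6, beside 0.621% of all genes. For no member were all WT Late libraries above all WT libraries, which held for 4.67% of all genes. The median log2 fold change of the members was 0.14, or 0.27 above the median of all genes. With quantile normalization the members' median was -0.0043, only 0.0042 above that of all genes, and 3 of 6 fold changes were above 0. By an exact permutation test of single members (two-sided, smallest possible p 0.0286), p lay between 0.371 for *mccc-1* and 1.0 for *bckd-1A*. The 95% intervals held rises and falls alike, and that of *mccc-1*, the narrowest, spanned folds from 0.684 to 1.86, while that of *bckd-1A* spanned 0.436 to 2.36. With 4 and 3 libraries, folds inside these bounds were not excluded, and the bounds are not limits of detection.

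In rescaled FPKM without WT Late replicate 3, the members lay higher in WT Late than in WT by 0.32 to 0.59 on the log2 scale. Their median was 0.44, beside -0.17 for all genes. The largest fold change was that of *bckd-1A*, 0.59 with an interval of 0.00 to 1.18 (limma, unadjusted p = 0.049, adjusted p = 0.188). Those of *ivd-1* (0.49), *bcat-1* (0.47), *dbt-1* (0.41), *bckd-1B* (0.41) and *mccc-1* (0.32) followed. Again 0 of 6 members were called after adjustment, although 5.14% of all genes were called without this library, and 1 of 6 had an unadjusted p under 0.05, beside 26.2% of all genes. For 4 of 6 members, *bcat-1*, *bckd-1A*, *dbt-1* and *mccc-1*, the remaining 3 WT Late libraries were all above all WT libraries, against 14.2% of all genes, and for *mccc-1* this rested on 56.03 against 56.01 rescaled FPKM. In rescaled FPKM the members' values move together over the libraries, so these 4 genes are not 4 separate observations. With scaling to total reads on genes, given below, the remaining 3 WT Late libraries were not above all WT libraries for any member. On that scale WT Late replicate 3 was the highest library for *bcat-1* and the lowest for *bckd-1A*.

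**Figure D2:**
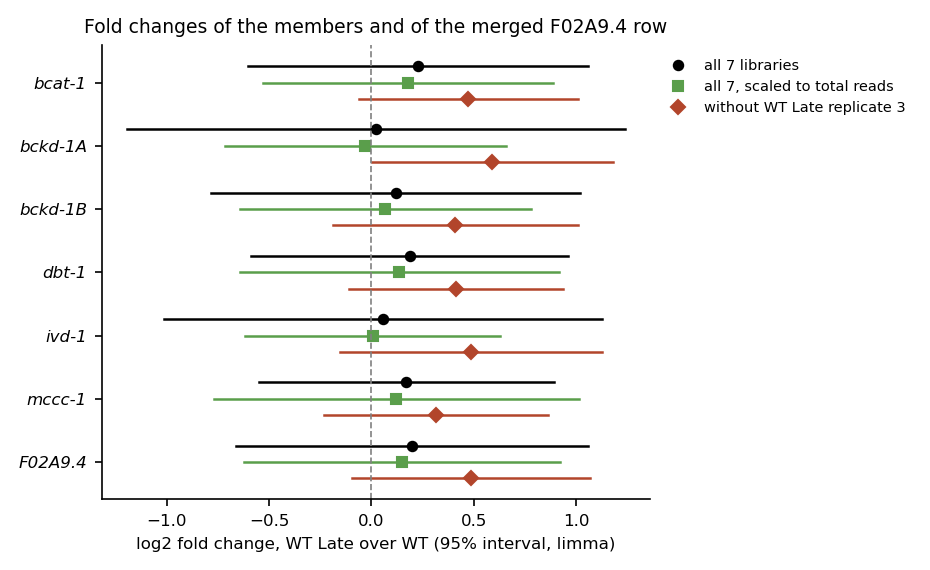
Log2 fold change of WT Late over WT (x axis) for each member and the merged entry, with 95% intervals from limma, for all 7 libraries (black circles), for all 7 libraries scaled to the total reads on genes (green squares) and without WT Late replicate 3 (red diamonds). All intervals with 7 libraries span 0, and without WT Late replicate 3 only that of *bckd-1A* begins above 0.

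The low place of WT Late replicate 3 depended on the scale. The library size behind the deposited FPKM was 1.79 times the reads on genes in WT Late replicate 3 and 0.675 times in WT Late replicate 4, and the rescaling brought these to 2.46 and 0.573, against 0.928 to 1.18 in WT libraries. Of all reads on genes, the 6 members took 0.106%, 0.0956%, 0.1205% and 0.0811% in WT Late replicates 1 to 4, against 0.0807%, 0.0927% and 0.109% in WT replicates. On this measure WT Late replicate 3 had the highest share and replicate 4 nearly the lowest, the reverse of their places in rescaled FPKM. The share varied 1.49-fold over the 7 libraries, against 3.00-fold for the summed rescaled FPKM. This scale was added after the data were seen, and it moves all genes of a library at once: in WT Late replicate 3, 87.46% of all tested genes lay above the WT mean on it.

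Expressed as RPKM over the reads on genes, so that reads were scaled only by gene length and by the library's total, *ivd-1* hardly varied. Its values were 120.2, 104.2, 112 and 127 in WT Late replicates, against 111, 109 and 126 in WT replicates, a 1.22-fold range over libraries in place of 4.88-fold in rescaled FPKM. The groups overlapped fully, with means of 116 ± 9.92 in WT Late and 115 ± 9.68 in WT (SD, n = 4 and 3). For *mccc-1* the reverse held, with 52.1, 58.1, 97.9 and 32.1 in WT Late replicates, against 36.3, 58.5 and 62.5 in WT replicates, and WT Late replicates 3 and 4 as its highest and lowest libraries. *bcat-1* and *dbt-1* were also highest in WT Late replicate 3, at 163 and 104.2. Only *bckd-1A* was lowest there on both scales, at 82.8 against 111 to 141 in the other WT Late libraries and 97.4 to 141.6 in WT libraries. On this scale too 0 of 6 members were called (limma, Benjamini-Hochberg adjusted p), beside 0.47% of all genes, and the fold changes lay between -0.03 for *bckd-1A* and 0.18 for *bcat-1*.

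**Figure D3:**
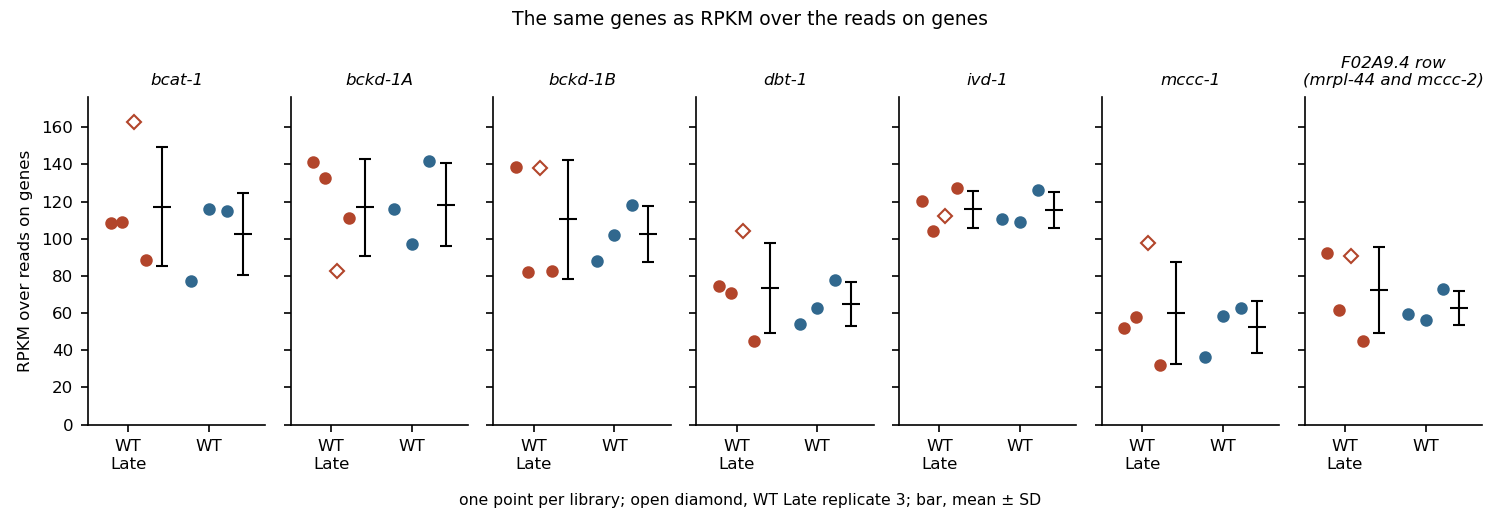
The same genes as RPKM over the reads on genes (y axis, linear), one point per library, WT Late in red on the left and WT in blue on the right, with mean ± SD. WT Late replicate 3, the open diamond, is the highest library for *bcat-1* at 163, *dbt-1* at 104.2 and *mccc-1* at 97.9, and the lowest for *bckd-1A* at 82.8.

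Within a library the order of the members by level was the same on both scales, which differ only by a factor for each library. By group mean, the order was similar on both scales only for its last places. In mean rescaled FPKM, *bckd-1A* was highest (133 in WT Late, 112 in WT), followed by *ivd-1* (129 in WT Late, 108 in WT). Next came *bcat-1* (116 in WT Late, 94.8 in WT) and *bckd-1B* (112 in WT Late, 95.6 in WT), which changed places between the groups. *dbt-1* (70.6 in WT Late, 60.3 in WT) and *mccc-1* (54.6 in WT Late, 48.2 in WT) were the lowest. The first 4 differed from each other by less than their spread, and scaled to total reads *bcat-1* was first of them in WT Late (117, beside 116.9 for *bckd-1A*) and *bckd-1A* in WT (118). *mccc-1* ranked last of the 6 in 6 of 7 libraries, the exception being WT Late replicate 3, in which *bckd-1A* was last. All members were among the more abundant transcripts, between the 87.3 and 94.6 percentiles of tested genes in WT Late libraries and the 86.0 and 94.2 percentiles in WT libraries.

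The 15 ratios between members, taken within a library, did not separate the groups. Their mean log2 values differed by -0.17 to 0.21 between WT Late and WT, the groups overlapped for all 15, and the smallest two-sided exact permutation p was 0.6 before adjustment. WT Late replicate 3 was the highest or lowest library in 12 of the 15. For the E1 subunits, the log2 ratio of *bckd-1A* over *bckd-1B* averaged 0.10 ± 0.62 in WT Late and 0.20 ± 0.24 in WT (SD, n = 4 and 3).

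Among lists of connected pathways, the valine and isoleucine branches and the propionate route held the 3 genes that were called. These routes follow the ketoacid dehydrogenase and run beside the leucine steps of *ivd-1* and *mccc-1*, not after them. In a list of 9 genes of the valine and isoleucine branches, 2 were called higher and 0 lower (limma), beside 0.849% of all genes in either direction. The list was drawn up with earlier results known, and its median log2 fold change was 0.43. The acyl-CoA dehydrogenase gene *acdh-1*, which in worms also acts in the shunt that breaks down propionate, was at 1725, 1397, 1157 and 1011 rescaled FPKM in WT Late replicates, against 97.2, 171 and 128 in WT replicates. All WT Late libraries, replicate 3 included, were far above all WT libraries. Its log2 fold change was 3.33 (interval 2.29 to 4.37, limma adjusted p = 0.00606), and the adjusted p was 0.104 without WT replicate 1 and 0.0839 without WT replicate 3.

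The hydrolase gene *hach-1*, which releases hydroxyisobutyrate in valine breakdown and also acts in the propionate shunt, was at 371, 344, 135 and 458 rescaled FPKM in WT Late replicates, against 62.9, 57.1 and 61.4 in WT replicates. WT Late replicate 3 was again the lowest of its group, but it was still above all WT libraries. The log2 fold change of *hach-1* was 2.29 (interval 1.304 to 3.28, limma adjusted p = 0.039). This call was lost without any one library other than WT Late replicate 3, with an adjusted p of up to 0.250 without WT replicate 3. It was kept with total-read scaling (limma adjusted p = 0.0027). The enoyl-CoA hydratase gene *ech-6*, named here after its values were seen, had a log2 fold change of 2.52 and did not pass (limma adjusted p = 0.171). It passed without WT Late replicate 3 (adjusted p = 0.00024) and with total-read scaling (adjusted p = 0.00263). The lowest gene of the list was *acdh-4* at 0.17.

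Propionyl-CoA, an end product of valine and isoleucine breakdown, is carboxylated and rearranged to succinyl-CoA. Of 7 genes of this route, with a median of 0.22, 1 was called higher and 0 lower, beside 0.849% of all genes in either direction. It was *mmaa-1*, the homolog of a human gene that serves the cobalamin-dependent mutase, at 27.3, 34.1, 43.8 and 26.0 rescaled FPKM in WT Late replicates, against 4.53, 11.3 and 8.27 in WT replicates. Every WT Late library was above every WT library, with a log2 fold change of 2.02 (interval 1.19 to 2.85, limma adjusted p = 0.0287). The call was lost without WT Late replicate 1, 2 or 4 or WT replicate 1 or 3 (adjusted p of up to 0.202, without WT replicate 1) and with total-read scaling (adjusted p = 0.435). The lowest gene of the route was *pccb-1*, a propionyl-CoA carboxylase subunit gene, at -0.38.

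Set against the members within a library, the 3 called genes stood higher in WT Late. These ratios were formed after the calls were seen and are given without a test. *acdh-1* over *bcat-1* was 14.3, 11.5, 17.5 and 6.52 in WT Late replicates, against 1.17, 1.74 and 1.24 in WT replicates. *hach-1* over *ivd-1* was 2.77, 2.97, 2.97 and 2.06 in WT Late replicates, against 0.528, 0.619 and 0.541 in WT replicates, and WT Late replicate 3 was no longer apart. Of the 18 ratios of a called gene over a member, 16 had all WT Late libraries above all WT libraries, and *mmaa-1* over *bckd-1A* and over *ivd-1* did not. Each of the 3 called genes alone already had all WT Late libraries above all WT libraries. The count was thus largely set in advance, and the 18 ratios are not separate observations. The differences of mean log2 ratios ran from 1.86 to 3.31.

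**Figure D4:**
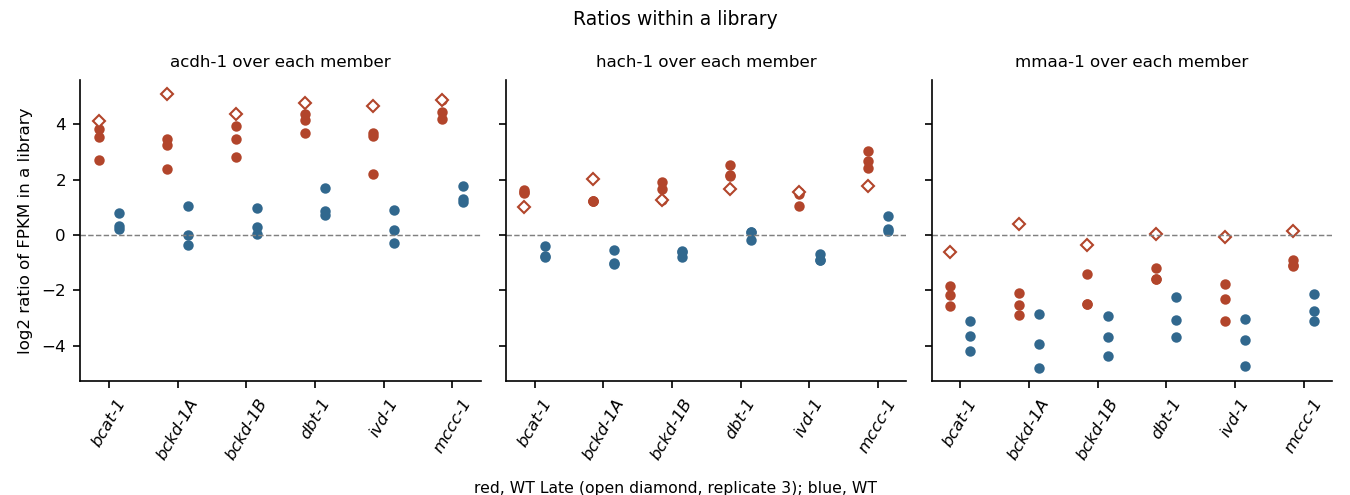
Log2 ratio of FPKM within a library (y axis) of *acdh-1*, *hach-1* and *mmaa-1* over each of the 6 members (x axis), one point per library, WT Late in red on the left of each pair and WT in blue on the right; the open diamond is WT Late replicate 3. WT Late and WT do not overlap in 16 of the 18 ratios, whose numerators were chosen as called genes.

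The other connected lists held no called gene. The 4 genes that finish leucine breakdown had a median log2 fold change of 0.79, with 0 called (limma). Of them 1 had an unadjusted p under 0.05, beside 8.89% of all genes. Without WT Late replicate 3, 2 were called, beside 5.14% of all genes. Highest was C05C10.3, described in the table as a probable succinyl-CoA:3-ketoacid coenzyme A transferase, which uses the acetoacetate that leucine leaves. It was at 31.0, 35.5, 45.5 and 36.5 rescaled FPKM in WT Late replicates, against 13.6, 18.9 and 17.4 in WT replicates. The groups did not overlap and WT Late replicate 3 was the highest library, yet the log2 fold change of 1.13 did not pass with all libraries (limma adjusted p = 0.189, and 0.0485 without WT Late replicate 3). Y71G12B.10, of the HMG-CoA lyase family, was lowest at 0.32.

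Isovaleryl-CoA dehydrogenase passes its electrons to the electron transfer flavoprotein, and from there they reach a ubiquinone oxidoreductase. The 3 genes of both had a median of 0.65, with *let-721*, the oxidoreductase gene, highest at 0.82 (limma adjusted p = 0.409) and F23C8.5 lowest at 0.48. The 9 subunits and partners of the other 2-oxoacid dehydrogenases had a median of 0.21, from *ogdh-1* at -0.59 to the lipoyl synthase gene *lias-1* at 0.66. The E3 gene *dld-1*, named because the complex needs it, was at -0.26 (limma adjusted p = 0.909). Of the other biotin enzymes and the biotin ligase, 5 genes had a median of -0.34, from the acetyl-CoA carboxylase gene *pod-2* at -1.02 to the pyruvate carboxylase gene *pyc-1* at 0.95.

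The 7 genes of monomethyl branched-chain fatty acid synthesis, which draws on the ketoacid dehydrogenase, had a median of -0.46, from *pod-2* to the hydroxyacyl-CoA dehydratase gene *hpo-8* at 0.14. For 14 TCA cycle genes the median was -0.20, from *ogdh-1* to *idhg-2* at 0.21. The 11 amino acid exchanger genes had a median of 0.02, from *aat-6* at -0.62 to *aat-8* at 0.88, and the 6 leucine, isoleucine and valine tRNA ligase genes had one of -0.37, from *lars-2* at -1.14 to *vars-1* at -0.20. In these 7 lists 0 genes were called (limma). An unadjusted p under 0.05, which 8.89% of all genes had, was found for *let-721* and *pyc-1* alone. Without WT Late replicate 3, *pyc-1* (limma adjusted p = 0.0275) and F27D4.1, an electron transfer flavoprotein subunit gene named after its values were seen (limma adjusted p = 0.0261), passed, beside 5.14% of all genes.

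**Figure D5:**
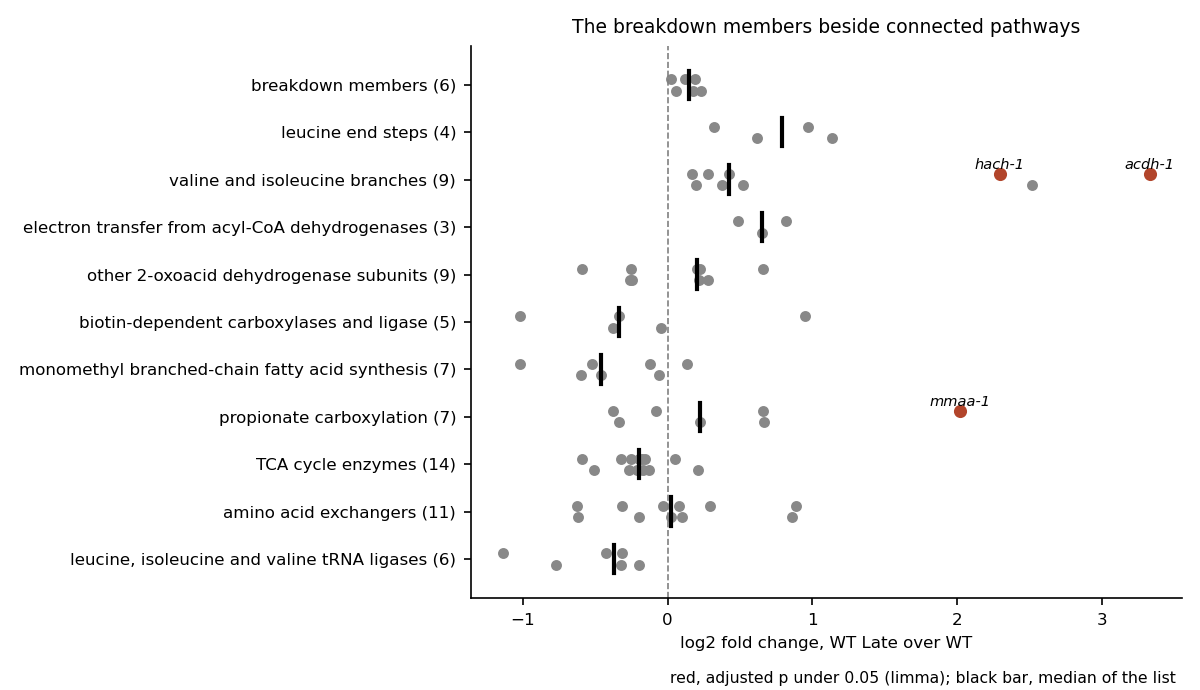
Log2 fold change of WT Late over WT (x axis) for each gene of the members and of 10 connected lists, with the number of tested genes in parentheses; red points have an adjusted p under 0.05 and black bars are medians. The members lie between 0.02 and 0.23, and *acdh-1*, *hach-1* and *mmaa-1* are the called genes.

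Each WT Late library was also set against the mean of the WT libraries. The median log2 difference of the members was 0.41, 0.37, -0.64 and 0.65 in WT Late replicates 1 to 4, where that of all genes was -0.09, -0.26, 0.07 and -0.10. That of the TCA cycle genes was 0.11, -0.12, -1.59 and 0.53, and that of 7 intestinal marker genes was 0.58, 0.50, -0.67 and 0.71. The intestine, the main metabolic tissue of the worm, is part of every whole-animal library, and in bulk samples fewer cells of a type and less RNA per cell cannot be told apart. Of the 7 intestinal markers, none at 0, 0 were called (limma) and 1 had an unadjusted p under 0.05, beside 8.89% of all genes. Their summed level ranged from 1291 to 16008 rescaled FPKM in WT Late libraries and from 4778 to 6620 in WT libraries, with WT Late replicate 3 lowest and replicate 4 highest. The part of this difference in the levels of the members was not tested. Of the intestinal sum the protease gene *asp-1* made up 1022 in WT Late replicate 3 and 15106 in replicate 4, and the other 6 markers summed to 269 to 902 in WT Late libraries and 444 to 649 in WT libraries. Germline markers moved otherwise: the median log2 difference of 6 was -1.13, -1.47, 0.12 and -0.59 in WT Late replicates 1 to 4. Markers of most other tissues were, like those of the intestine, lowest in replicate 3 and highest in replicate 4. The medians were -0.67, -1.07, -1.19 and 0.16 for body wall muscle, and 0.28, 0.08, -0.29 and 0.31 for neurons. They were -0.57, -0.39, -1.32 and 0.44 for sperm, and -0.56, -0.58, -0.76 and 0.48 for oocytes. Hypodermal markers, at 0.27, -0.06, -0.75 and -0.08, were also lowest in replicate 3. Of 38 markers of intestine, muscle, hypodermis, neurons, germline, sperm and oocytes, 34 had reads in every library, and *unc-22* (muscle), *unc-104* and *rgef-1* (neurons) and *spe-11* (sperm) had none in WT Late replicate 2. With all libraries the hypodermal collagen gene *dpy-7* was the only marker called (log2 fold change 2.96, limma adjusted p = 0.00471).

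Outside these lists, the 3 genes whose log2 levels followed *bcat-1* most closely over the 7 libraries, of 6451 candidates, were *arx-2* (Pearson r = 0.99, Spearman rho = 1.0), *atg-18* (r = 0.986, rho = 0.964) and *haf-4* (r = 0.977, rho = 1.0). They encode an actin-related protein, an autophagy protein and an ABC transporter. These are the highest of many correlations, and all points share the same 7 libraries and their scaling.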

How the data were processed

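The authors deposited FPKM per gene in 1 table with 1 column for each of the 7 libraries, and the table also lists gene length, coordinates and the authors' gene names. RNA was extracted from whole L4 animals and sequenced by a company (aligner, counter and build not given in the sources used here). Identifiers were looked up in the WBcel235 annotation, which held 46603 of the 46778. FPKM times length was a whole multiple of 1 step per library for 100% of nonzero values (tolerance 0.02 reads), which gave the reads on genes. No column was of unknown sample.

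Deposited FPKM was divided by median-of-ratios factors with a geometric mean of 1. Genes that reached an FPKM of 0.5 in 3 or more libraries entered the test, on log2(value + 0.5) with limma 3.58.1 in R 4.3.3 (lmFit, and eBayes with a variance trend), and fold changes are on that scale, which understates those of low genes. A gene was called where its p, adjusted by the Benjamini-Hochberg method, was under 0.05. For single members, group means of log2 values were also compared by an exact permutation test, two-sided (scipy 1.17.1). No list was tested. The fit, without the rescaling step, was tested on simulated reads that had no library standing apart as WT Late replicate 3 did.

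The members and lists were chosen with earlier results of these data known. Named genes were all members, each called gene and the genes with the highest and the lowest fold change of every list, and the 3 genes outside the lists, of mean rescaled FPKM of at least 5, most correlated with *bcat-1*. Others are said to be outside this rule where they are named. The fit was repeated on unscaled and on quantile-normalized FPKM, with a pseudocount of 0.1 or 1, without the filter or with one of 5 FPKM, without the trend, with weighted libraries, by voom on the recovered reads, with a replicate block, without each library, and with a log2 fold change of 1 as a second limit. Scaling to total reads on genes was added after the data were seen. The sequences of the genes were not used here.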

Additional observations from a re-analysis of the deposited data

Results flagged for a closer look

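For each of the 6 members, for the merged F02A9.4 entry and for 3 library measures, the gap between the farthest library and its nearest neighbour was set against the whole range of the 4 WT Late libraries. Of these 10 values, 2 were beyond the critical value of Dixon's test for 4 samples, and chance alone gives this for about 1 in 20 groups. The first was *dbt-1*, with a gap of 0.8878 of the range, because WT Late replicate 3 stood at 42.3 rescaled FPKM while the other WT Late libraries stood between 78.4 and 83.0. The second was the number of reads on genes, with a gap of 0.8388 of the range, because WT Late replicate 1 had 20961698 reads and the others between 17553893 and 18103387. The WT group, with 3 libraries, was too small for this test.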

How the results depend on the processing

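In no alternative was a member called different between WT Late and WT, and the adjusted p of *bcat-1*, *dbt-1* and *mccc-1*, whose fold changes stayed above 0 throughout, was 0.240 or more (limma). The direction of the other 3 was not stable, all of them with intervals that span 0. With quantile normalization the log2 fold changes were -0.25 for *bckd-1A*, -0.031 for *bckd-1B* and -0.17 for *ivd-1*, and those of *hpo-8* and *vars-1* were -0.080 and 0.025. With the replicate block they were -0.25, -0.042, -0.27, -0.0855 and 0.06 in the same order, and the median of the members was 0.01. The labels do not state that replicate numbers pair the libraries. For each tested gene, the deviation of a library's log2 value from its group mean was taken. These deviations correlated at 0.24, -0.09 and -0.18 between same-numbered libraries, which are too few values to settle whether they were paired. With scaling to total reads on genes, chosen after seeing the data, *bckd-1A* was at -0.030, and with library weights *acdh-4* was at -0.20 and *pccb-1* at 0.16. The call of *hach-1* was also lost with a pseudocount of 0.1, no filter, no variance trend and the replicate block (limma adjusted p of up to 0.121), and that of *mmaa-1* with FPKM as deposited, quantile normalization, no filter and no variance trend (up to 0.0878). With 1 library left out, the ranges were -0.25 to 0.59 for *bckd-1A*, -0.074 to 0.41 for *bckd-1B*, -0.27 to 0.49 for *ivd-1*, 0.013 to 0.44 for the median of the members, -0.21 to 0.43 for *acdh-4*, -0.74 to 0.21 for *pccb-1*, -0.0855 to 0.71 for *hpo-8*, -0.91 to 0.28 for *vars-1* and -0.0042 to 0.49 for F02A9.4. The median of the members was -0.0043 with quantile normalization and 0.43 with library weights. Over all genes, 88 were called higher and 24 lower. These counts were 42 and 9 with no filter, 500 and 558 with library weights, and 49 and 13 with total-read scaling, 43 were lower with quantile normalization, and with 1 library left out they ranged from 23 to 368 higher and from 5 to 282 lower, the highest without WT Late replicate 3 and the lowest without WT replicate 1. The cause was not tested, apart from what each setting changes by its construction. With 4 and 3 libraries, folds inside the intervals given for each member were not excluded, and the bounds are not limits of detection. Every member had over 1000 reads in each library, and the effect of depth was not tested.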
